A study of Mus musculus with 3 samples.

Results

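Plasmacytoid dendritic cells (pDCs) were described in single-cell RNA sequencing of mouse cochlea. A cell counted as a pDC when its barcode had at least 500 unique molecular identifiers (UMIs, each standing for 1 captured RNA molecule), at least 200 genes and at most 20% mitochondrial UMIs, and also at least 3 UMIs of Siglech, at least 2 of Bst2 and at most 1 of Cd79a. Siglech encodes a surface lectin of mouse pDCs, Bst2 the membrane protein tetherin, and Cd79a a chain of the B cell receptor. The rule found 426 pDCs among 37188 kept cells, or 1.15%. The values of Siglech, Bst2 and Cd79a chose the cells and are given as a description.

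pDCs are bone marrow-derived blood cells that sense viral nucleic acids in endosomes through Toll-like receptors TLR7 and TLR9 and can answer with large amounts of type I interferon. Their identity depends on the transcription factor TCF4, also called E2-2, and part of their gene programme is shared with lymphocytes. They arise in the bone marrow from dividing precursors, leave it through the blood, and are found in small numbers in most tissues.

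The study made 3 libraries from C57BL/6J mice, each from 6 animals per the labels. The control mice had no noise, the mice of the hidden hearing loss group (HHL) had noise of 110 dB for 2 hours, and those of the noise-induced hearing loss group (NIHL) had 115 dB for 4 hours, for 3 days. Cochleae were taken 6 hours after the last exposure. The labels give neither age nor sex, and since the animals of a group were pooled, no value has a spread between mice. All cells stand in 1 table, and the number at the end of a barcode (1, 2 or 3) matches no label. The libraries are therefore numbered by it, were put in none of the 3 groups, and no comparison below is one of noise. Differences between libraries have no replicate check, and no test was run. Intervals in brackets are exact 95% intervals, Clopper-Pearson for shares of cells and Poisson for summed UMIs, and cover counting error only.

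The kept cells numbered 16883, 9602 and 10703 in libraries 1, 2 and 3. Their median depth outside the pDCs was 5462, 6288.5 and 8124 UMIs. Coch, a gene of cochlear fibrocytes, was at 196, 503 and 591 CPM (UMIs of the gene per 1000000 UMIs of the class) in the cells outside the pDCs and at 6.27, 25.5 and 27.9 CPM in the pDCs. Otof, a hair cell gene, was at 3.65, 1.93 and 0.403 CPM in the other cells, and 1 UMI of it was found in all pDCs. Of the barcode sequences, 142 occurred in 2 or more libraries. Of the pDCs, 2 carried such a barcode, and no sequence was shared between pDCs of different libraries.

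The 3 libraries held 247, 74 and 105 pDCs. The share of kept cells was 1.46% (1.29 to 1.66) in library 1, 0.771% (0.606 to 0.967) in library 2 and 0.981% (0.803 to 1.19) in library 3, and the interval of library 1 lay above those of the other 2. The pDCs had a median of 5519, 7053 and 5863 UMIs and of 2391, 2493.5 and 2345 genes, with a median of 4.88%, 4.05% and 4.02% mitochondrial UMIs. Siglech ran from 3 to 27 UMIs per cell over all pDCs, with medians of 8, 8 and 9. Bst2 had medians of 11, 12 and 19 UMIs. Bst2 is also a gene that interferon raises, and outside the pDCs it was at 75.8, 81.9 and 237 CPM, likewise highest in library 3.

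Just inside the rule were 38 pDCs with exactly 3 UMIs of Siglech, and just outside were 48 cells with 2 UMIs and the other conditions met. Tcf4, which the rule did not use, was at 909 CPM in the cells just inside and at 609 CPM in those just outside. At least 3 UMIs of Tcf4 were found in 29 of the 38 cells inside and in 36 of the 48 outside. Bst2 at exactly 2 UMIs kept 14 pDCs, and 22 cells with enough Siglech had 0 or 1. Cd79a stood at 1 UMI in 4 pDCs, and 2 further cells with more than 1 UMI stayed out. The minimum of Siglech therefore cut through cells that also carried Tcf4. C1qa, a complement gene that marks macrophages, was in 23.7% of the 38 cells just inside, at 989 CPM. It was in 20.8% of the 48 just outside, at 321 CPM, and in 35.7% of the 14 pDCs with 2 UMIs of Bst2. With more than 3 UMIs of Siglech, 4.12% of 388 pDCs had it, at 148 CPM. Cells with macrophage RNA thus stood on both sides of the Siglech limit.

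The name fitted the markers. Irf8, a transcription factor that dendritic cells need, was at 2358, 1845 and 1996 CPM in the pDCs and at 188, 105 and 136 CPM in the other kept cells. Tcf4 was at 1674, 1591 and 1277 CPM in the pDCs and at 79.1, 118 and 77.6 CPM in the other cells. Both genes were in excess in all 3 libraries, at 12.5 to 17.5-fold for Irf8 and 13.4 to 21.2-fold for Tcf4.

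A minority of the pDCs also carried RNA of other blood cells. At least 3 UMIs of the complement genes C1qa, C1qb and C1qc, which mark macrophages, were found in 3, 8 and 10 pDCs. In these 21 cells Csf1r, the receptor for the macrophage growth factor, was at 1203 CPM and Tcf4 at 439 CPM, against 30.6 CPM of Csf1r and 1838 CPM of Tcf4 in the pDCs with none of the 3 features named here, so that their markers go against the label. In 37, 3 and 8 pDCs the neutrophil genes S100a8 and S100a9 made up more than 1% of the UMIs, and 26, 1 and 3 pDCs were called doublets by Scrublet, a program that scores cells against simulated pairs of cells. In all, 43, 11 and 17 pDCs had at least 1 of these features, and 204, 63 and 88 had none. The 355 pDCs with none are called clean pDCs here, a class set after the values were seen. The name means only that these 3 features were absent, and some clean pDCs carried much RNA of other blood cells, as given below. Every clean pDC still had S100a8 UMIs, at 1295 CPM over the class, and all carried Tcf4.

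Known pDC genes were among those that set the pDCs apart. Against the other kept cells of the same library, 776 of 9752 genes with at least 20 UMIs in the pDCs were at least 2-fold higher in all 3 libraries, or 7.96%, and 253, or 2.59%, at least 2-fold lower. Of 28 further surface and marker genes of pDCs, 26 were higher and none lower. These genes were listed as markers of the cells that Siglech picked, so the count describes the rule's cells and supports nothing further. Ccr9, the receptor for the chemokine CCL25 that guides pDCs to the gut and thymus, was at 439 (409 to 469), 357 (312 to 407) and 586 (539 to 636) CPM in the pDCs and at 1.22, 0.906 and 0.979 CPM in the other cells. Ly6d, a surface protein of lymphoid-primed progenitors and B cells, was at 1586, 1825 and 2039 CPM in the pDCs and at 18.6, 19.8 and 33.3 CPM in the others. Both genes kept every library's pDCs far above every library's other cells.

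Less familiar genes stood beside them. Klk1, the gene of tissue kallikrein, a protease that releases kinins, was at 69.5 (58.2 to 82.4), 59.04 (41.6 to 81.4) and 245 (214 to 278) CPM in the pDCs and at 0.0464, 0.0109 and 0.0903 CPM in the other cells. It was the gene with the widest gap, between 1497 and 5406-fold across libraries, among genes with at least 50 CPM in the pDCs of every library. The other kept cells held 6, 1 and 13 UMIs of Klk1, so the size of these ratios is uncertain. Cox6a2, which encodes the heart and muscle form of a cytochrome c oxidase subunit, was at 471, 886 and 774 CPM in the pDCs and at 2.93, 2.89 and 3.01 CPM in the others. Other genes of the first 25 were Cd300c, an immunoglobulin-like receptor, Pacsin1, an adaptor of membrane traffic, P2ry14, a receptor for nucleotide sugars, Kmo, an enzyme of tryptophan breakdown, and Cd7 and Cd4, surface proteins better known from T cells. Cd4 was at 50.7, 54.3 and 93.9 CPM in the pDCs and at 0.937, 2.85 and 2.01 CPM in the other cells. Cd3e, a gene of the T cell receptor complex, had no UMI in any pDC. Cd8b1, another T cell marker gene, was higher in the pDCs of every library. It was at 20.9, 28.7 and 57.8 CPM there and at 2.21, 6.16 and 2.24 CPM in the other cells.

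**Figure D1:**
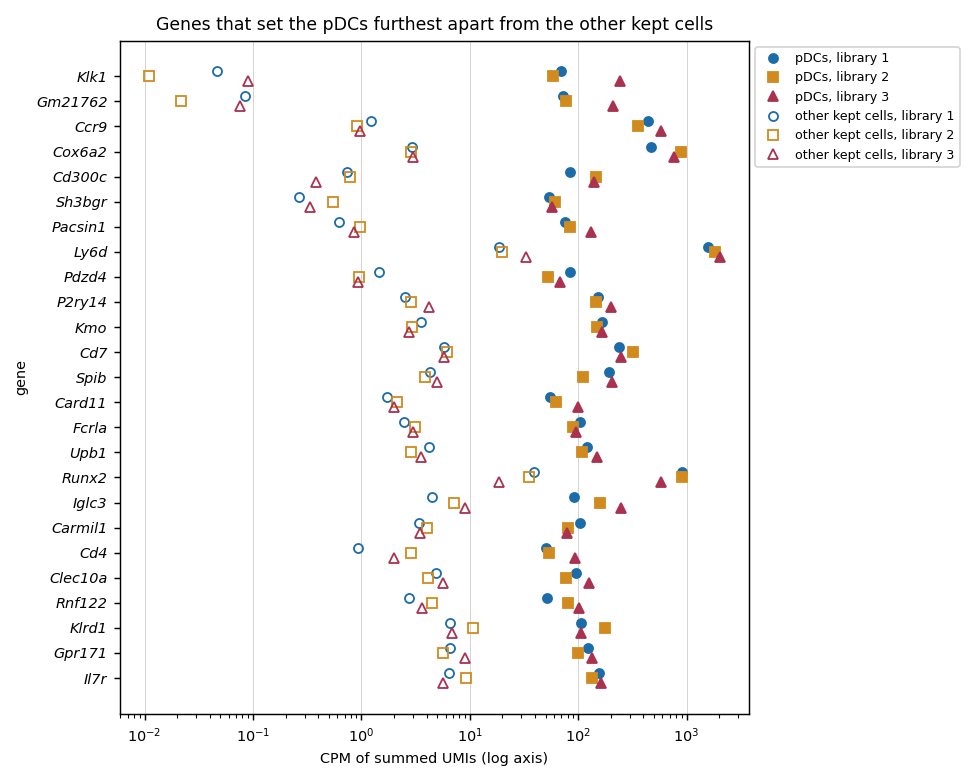
CPM of the 25 genes with the largest ratio of pDCs to other kept cells in their lowest library, on a log axis, with filled symbols for pDCs and open symbols for the other cells of the same library. Filled and open symbols do not meet for any gene, and Klk1 and Gm21762 have the widest gaps.

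The transcription factor genes of pDCs followed the same pattern in part. Of 16, 9 were at least 2-fold higher than in the other cells in all 3 libraries and none was lower. Over all genes tested, 7.96% were higher and 2.59% lower. Spib, an ETS-family factor of pDCs and B cells, was at 191, 112 and 204 CPM in the pDCs and at 4.27, 3.83 and 5.01 CPM in the others. Runx2, which pDCs share with bone-forming cells and which in mouse pDCs is known for their exit from the marrow, was at 913, 908 and 587 CPM in the pDCs and at 39.5, 35.1 and 18.8 CPM in the others. Bcl11a, a factor of B cells and pDCs, was at 476, 514 and 518 CPM in the pDCs and at 48.3, 66.98 and 72.2 CPM in the other cells. These 3 were high in the pDCs of every library, whereas Zeb2, Ets1, Spi1 and Stat3 did not pass 2-fold in all 3 libraries.

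Conventional dendritic cells were the nearest cell type by function. They were chosen by counts (no Siglech, at least 5 UMIs of the MHC class II gene H2-Ab1, at least 1 of Flt3 and at least 1 of Zbtb46, Clec9a, Xcr1, Cd209a or Itgax) and numbered 45, 34 and 36. Against them 451 genes, or 4.62%, were at least 2-fold higher in the pDCs in all 3 libraries and 161, or 1.65%, lower. Of the pDC surface and marker genes, 22 of 27 were higher than in conventional dendritic cells and none lower. Id2, the factor that opposes TCF4 and is known from conventional dendritic cells, was at 73.2, 46.3 and 74.3 CPM in the pDCs and at 778, 753 and 680.2 CPM in the conventional dendritic cells. Batf3, a factor of cross-presenting dendritic cells, was at 2.61, 6.38 and 4.13 CPM in the pDCs and at 93.7, 125 and 137 CPM in the conventional dendritic cells. Tlr3, the sensor of double-stranded RNA, was at 0.523, 3.19 and 9.29 CPM in the pDCs and at 118, 94.7 and 141 CPM in the conventional dendritic cells. Batf3 had 13 UMIs and Tlr3 12 in all pDCs, under the minimum of 20, so neither was called. Id2 was at least 2-fold lower in the pDCs of every library.

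The genes of nucleic acid sensing were higher in part. Of 22 tested, 8 were at least 2-fold above the other kept cells in all 3 libraries and none below. The shares over all genes tested were 7.96% above and 2.59% below. Tlr7, the receptor for single-stranded RNA, was at 49.1 (39.7 to 60.1), 36.7 (23.3 to 55.1) and 80.5 (63.6 to 100.5) CPM in the pDCs and at 10.4, 7.12 and 7.79 CPM in the other cells. Tlr9, the receptor for DNA, had 10 UMIs in all pDCs, at 1.57, 3.19 and 5.16 CPM, too few for the 20-UMI minimum. Unc93b1, which carries these receptors to endosomes, was at 344, 439 and 402 CPM in the pDCs and at 146, 111 and 109 CPM in the others. Slc15a4, an endosomal transporter needed for their signal, was at 59.6, 38.3 and 77.4 CPM in the pDCs and at 19.5, 12.6 and 16.6 CPM in the others. Pld4, an endosomal nuclease, was at 427, 357 and 509 CPM in the pDCs and at 110.5, 75.6 and 79.95 CPM in the others. Ctsl, a protease that cuts the receptors into their active form, was at 295, 357 and 716 CPM in the pDCs and at 105, 136 and 145 CPM in the others. The adaptor Myd88 and the kinase gene Irak4 were not among the 8.

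No type I or type III interferon RNA was found. The 20 type I and type III interferon genes of the table had 0 UMIs in the 426 pDCs. A limit was set at 3 counts of the total in place of an exact interval. It allows up to 0.704% of pDCs with a UMI and up to 0.855 CPM over the 3 libraries together. By library it allows up to 1.21%, 4.05% and 2.86% of pDCs and up to 1.57, 4.79 and 3.10 CPM. The other kept cells had 116 UMIs of the same 20 genes in 70 of 36762 cells, with 15, 5 and 96 UMIs by library. Ifng, the type II interferon gene, was counted apart and had 1 UMI in all pDCs. The subunit genes of the type I interferon receptor were both higher in the pDCs than in the other cells. Ifnar1 was at 131, 132 and 123 CPM in the pDCs and at 32.4, 26.8 and 24.9 CPM in the others, and Ifnar2 was at 245, 235 and 291 CPM in the pDCs and at 107, 90.9 and 98.6 CPM in the others. Of the cytokine genes, Il12a, a subunit of interleukin 12, was at 21.4, 46.3 and 13.4 CPM in the pDCs and at 3.65, 4.88 and 4.76 CPM in the other cells. Ccl4, a chemokine that draws T cells and monocytes, was at 295, 330.3 and 609 CPM in the pDCs and at 52.05, 99.3 and 99.9 CPM in the other cells. Il12a and Ccl4 were the 2 higher genes among the 10 tested, against 7.96% of all genes tested.

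The pDCs also carried lymphocyte genes. Of 9 tested genes of the lymphoid programme, 5 were at least 2-fold above the other kept cells in all 3 libraries, and 1, Id3, was below. Over all genes tested, 7.96% were above and 2.59% below. Dntt, the enzyme that adds bases during antigen receptor rearrangement, was at 139 (123 to 157), 129 (103 to 161) and 85.7 (68.2 to 106) CPM in the pDCs and at 15.7, 14.6 and 9.70 CPM in the others. Il7r, a chain of the interleukin 7 receptor, was at 157, 134 and 162 CPM in the pDCs and at 6.46, 9.23 and 5.63 CPM in the others. Iglc3, an immunoglobulin light chain constant gene, was at 90.9, 158 and 248 CPM in the pDCs and at 4.51, 7.23 and 9.002 CPM in the others. The related Iglc2 was at 10.98, 11.2 and 14.4 CPM in the pDCs, and reads that fit both copies may have been split or lost. Ighm, the heavy chain constant gene of IgM, was at 947, 834 and 739.9 CPM in the pDCs and at 215, 120.3 and 126 CPM in the others. Rag1, the recombinase, had 3 UMIs in all pDCs. Ms4a1, a surface gene of mature B cells, had 1 UMI in all pDCs. Cd79b, also a B cell marker gene, was found in 22.9% of the 388 pDCs with more than 3 Siglech UMIs, at 32.1 CPM.

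Cells of the B lineage, chosen by no Siglech and at least 3 UMIs of Cd79a, numbered 327, 262 and 384. Against them 621 genes, or 6.37%, were at least 2-fold higher in the pDCs in all 3 libraries and 96, or 0.984%, lower. Of 9 lymphoid programme genes 1 was higher and 4 lower than in the B lineage cells. Dntt was at 189, 152 and 89.5 CPM and Ighm at 3484, 1836 and 2458 CPM in the B lineage cells. Il7r was at 117, 95.5 and 76.3 CPM there. Monocytes, chosen by no Siglech, at most 1 UMI of Cd79a, at least 1 each of Csf1r and Ccr2 and at least 3 of Ly6c2, numbered 2631, 1140 and 1713. Against them 824 genes, or 8.45%, were higher in the pDCs and 150, or 1.54%, lower. The surface and marker genes were higher in 25 of 28 cases against B lineage cells and in 24 of 27 against monocytes.

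MHC class II genes lay between the other kept cells and the conventional dendritic cells. Of 13 class II and costimulation genes tested, 8 were at least 2-fold above the other kept cells in all 3 libraries. The share over all genes tested was 7.96%. Against conventional dendritic cells, 8 of 12 were at least 2-fold below and none above, with H2-Ab1 left out because it chose those cells. Here the shares over all genes tested were 1.65% below and 4.62% above. Cd74, the invariant chain of class II molecules, was at 774, 1521 and 1134 CPM in the pDCs, 189.9, 416 and 265 CPM in the other kept cells and 9759.9, 12914 and 8570.1 CPM in the conventional dendritic cells. H2-Aa, a class II alpha chain, was at 277, 742 and 417 CPM in the pDCs, 68.3, 182 and 100.3 CPM in the other kept cells and 4549, 6726 and 4119 CPM in the conventional dendritic cells. A single pDC gave between 18.8% and 23.6% of the Cd74 UMIs of its library.

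The pDCs fell into cycling and non-cycling cells. Counted over 16 genes of the cell cycle, a cell was called cycling when these genes made up at least 0.3% of its UMIs, a limit set where few pDCs lay: 27 of the 355 clean pDCs stood between 0.2% and 0.4%. Over all pDCs the share of cycling cells was 51.0% (44.6 to 57.4) in library 1, 43.2% (31.8 to 55.3) in library 2 and 30.5% (21.9 to 40.2) in library 3. Among the clean pDCs it was 102 of 204 (42.9% to 57.1%) in library 1, 49.2% (36.4 to 62.1) in library 2 and 30.7% (21.3 to 41.4) in library 3. In both counts the interval of library 3 lay below that of library 1 and overlapped that of library 2. In the other kept cells of the 3 libraries the share was 37.1%, 32.1% and 41.0%, so the order of the libraries was not the same. Cycling clean pDCs had medians of 6640, 9276 and 9802 UMIs, against 4024, 5103 and 5534 in non-cycling ones. With each cell thinned to 1000 UMIs and at least 3 of them from the 16 genes, the shares were 52.0%, 48.4% and 31.8%, with 1 cell of library 2 too shallow to enter.

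**Figure D2:**
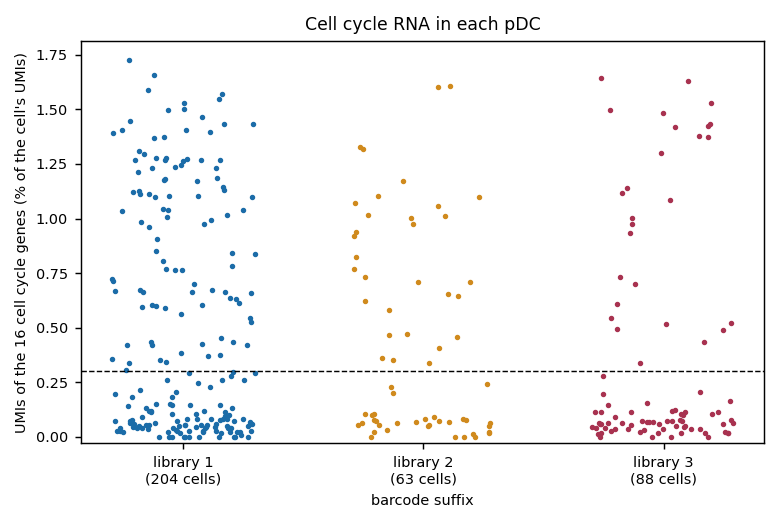
Percentage of a cell's UMIs that came from 16 cell cycle genes, 1 point per clean pDC, by library, with points spread sideways at random and the limit of 0.3% as a dashed line. Most points lie in a band near 0 or well above the line, and in library 3 the points above the line are 27 of 88.

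Cycling and non-cycling pDCs differed in more than cell cycle genes. Among 6610 genes with at least 50 UMIs in the clean pDCs, 325, or 4.92%, were at least 2-fold higher in cycling cells in all 3 libraries, and 143, or 2.16%, were at least 2-fold lower. The 16 genes that set the classes are among the higher ones and are no result. The lower genes held 10 of the 28 surface and marker genes, 5 of 8 class II genes and 4 of 17 sensing genes. No gene of these 3 lists was higher. Over all genes tested the median log2 ratio of cycling to non-cycling cells was 0.07, 0.15 and 0.07, and over the class II list it was −3.24, −2.25 and −2.48.

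Class II genes had the lowest median ratio of the lists compared. Cd74 was at 88.5, 245 and 272 CPM in cycling pDCs and at 1937, 2613 and 1825 CPM in non-cycling pDCs. H2-Aa was at 28.2, 105 and 87.4 CPM in cycling pDCs and at 734, 1224 and 608 CPM in non-cycling pDCs, where 1 cell gave 37.0% of the H2-Aa UMIs of library 1. With each cell thinned to 1000 UMIs, 2.94%, 19.4% and 11.1% of cycling pDCs had a Cd74 UMI, against 56.9%, 64.5% and 59.02% of non-cycling pDCs and 7.67%, 14.7% and 11.7% of 300 monocytes drawn from each library. Without thinning the shares were 29.4%, 38.7% and 55.6% of cycling and 74.5%, 90.3% and 77.05% of non-cycling pDCs. The thinned shares of cycling pDCs were near those of the monocytes, and those of non-cycling pDCs far above. The monocytes, which were chosen for Csf1r, Ccr2 and Ly6c2, had medians of 9769.5, 10774 and 19599 UMIs before thinning, against the lower medians of pDCs given above.

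Several surface genes followed class II. Ccr9 was at 272, 52.5 and 262 CPM in cycling pDCs and at 855, 1123 and 1251 CPM in non-cycling pDCs. Klk1 was at 19.2, 2.91 and 27.5 CPM in cycling pDCs and at 178, 201 and 585 CPM in non-cycling pDCs. Cd4 was at 24.4, 5.83 and 14.98 CPM in cycling pDCs and at 112, 166 and 211 CPM in non-cycling pDCs. For these 3 genes no library's cycling cells reached the level of its own non-cycling cells. Iglc3 was at 23.1, 17.5 and 34.9 CPM in cycling and at 202, 520.2 and 623 CPM in non-cycling pDCs. Tlr7 was at 32.1, 11.7 and 19.97 CPM in cycling and at 86.2, 65.02 and 182 CPM in non-cycling pDCs. Siglech was also lower in cycling cells, at 949, 629 and 562 CPM against 1979, 2571 and 2164 CPM in non-cycling cells. Deeper cells meet the minimum of 3 Siglech UMIs at a lower CPM, and the part of depth in the Siglech difference was not tested.

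Other pDC genes did not pass 2-fold in all 3 libraries in either direction. Tcf4 was at 1749.7, 1346 and 921 CPM in cycling pDCs and at 2459.9, 2743 and 2167 CPM in non-cycling pDCs, lower in cycling cells of each library. Ly6d was at 2477, 1999 and 2548 CPM in cycling pDCs and at 1161, 2347 and 2352 CPM in non-cycling pDCs. Dntt was at 156, 154 and 94.8 CPM in cycling and at 174, 142 and 127 CPM in non-cycling pDCs, with overlapping intervals in each library. Flt3, the receptor for the growth factor of dendritic cells, was at 253, 230.2 and 129.8 CPM in cycling and at 174, 177 and 107 CPM in non-cycling pDCs. Il7r was at 179.6, 128 and 159.7 CPM in cycling and at 207, 207 and 243 CPM in non-cycling pDCs.

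Bcl2, which protects cells from death, went the other way. It was at 271 (235 to 309.8), 207 (162 to 261) and 119.8 (88.3 to 159) CPM in cycling pDCs and at 51.4 (34.1 to 74.2), 35.5 (13.02 to 77.2) and 20.3 (8.15 to 41.8) CPM in non-cycling pDCs. The intervals of the CPM did not overlap in any library. With each cell thinned to 1000 UMIs, 23.5%, 12.9% and 7.41% of cycling pDCs had a Bcl2 UMI, against 4.90%, 3.23% and 0% of non-cycling pDCs. The intervals of these thinned shares overlapped in libraries 2 and 3. In the other kept cells Bcl2 was at 27.1, 23.2 and 20.4 CPM. Csf1r was also higher in cycling pDCs, at 43.6, 52.5 and 37.4 CPM against 11.01, 5.91 and 14.5 CPM in non-cycling pDCs, and so was Lyz2, the lysozyme gene of myeloid cells. The Csf1r values of non-cycling pDCs stand on few UMIs, 1 in library 2 and 5 in library 3.

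**Figure D3:**
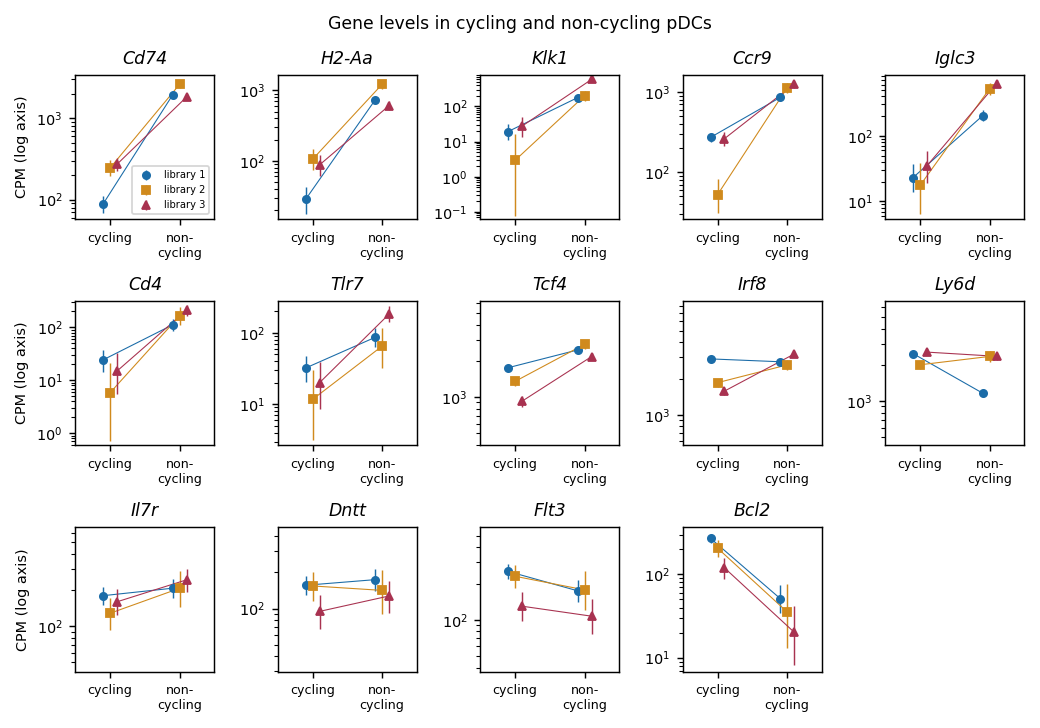
CPM of 14 genes in cycling and non-cycling clean pDCs, on log axes, with 1 symbol per library, exact 95% Poisson intervals and lines that join the values of a library. Cd74, H2-Aa, Klk1, Ccr9, Iglc3, Cd4 and Tlr7 are lower in cycling cells of all 3 libraries, and Bcl2 is higher.

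The pDCs of library 3 carried more interferon response RNA than those of libraries 1 and 2. Over 7547 genes with at least 50 UMIs in the pDCs, 1256, or 16.6%, differed at least 2-fold between the highest and the lowest library, and 92, or 1.22%, were at least 2-fold higher in library 3 than in each of the other 2. The same count was 71, or 0.941%, for library 1 and 80, or 1.06%, for library 2, and 183 genes, or 2.42%, were at least 2-fold lower in library 2 than in both others. Of 20 interferon response genes tested, 18 differed and 13 were at least 2-fold higher in library 3 than in both others, and 2, Rsad2 and Isg20, in library 2. The median log2 ratio of a library to the geometric mean of the other 2 was −0.81, −0.70 and 1.39 over these genes, against 0.07, −0.04 and 0.00 over all genes tested. In the other kept cells the same genes had medians of −0.41, −0.72 and 1.23, so library 3 was also highest there.

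Irf7, the factor that drives interferon genes in pDCs, was at 51.2 (41.6 to 62.4), 28.7 (17.02 to 45.4) and 230.1 (201 to 262) CPM in the pDCs and at 22.03, 18.8 and 86.3 CPM in the other kept cells. Isg15, a ubiquitin-like protein, was at 23 (16.7 to 30.9), 30.3 (18.3 to 47.3) and 130 (108 to 155) CPM in the pDCs and at 39.8, 78.3 and 224 CPM in the others. Ifi44, an interferon-induced antiviral gene, was at 28.7, 22.3 and 77.4 CPM in the pDCs and at 3.38, 4.88 and 19.4 CPM in the others. For all 3 genes the pDCs of library 3 were above those of libraries 1 and 2. Ifi27l2a, a small interferon-induced membrane protein gene, was at 466, 477 and 1496 CPM in the pDCs and at 354, 346 and 813 CPM in the others. Usp18, a brake on the interferon receptor, was at 14.6, 4.79 and 56.8 CPM in the pDCs and at 7.01, 6.21 and 26.5 CPM in the others. The list was not uniform: Rsad2, an antiviral enzyme, was at 14.1, 47.9 and 23.7 CPM in the pDCs and Isg20, an exonuclease, at 13.1, 54.3 and 26.8 CPM, both highest in library 2, where 1 pDC gave 44.1% of the Isg20 UMIs. Ly6e differed by less than 2-fold, at 1831, 1945 and 2155 CPM.

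**Figure D4:**
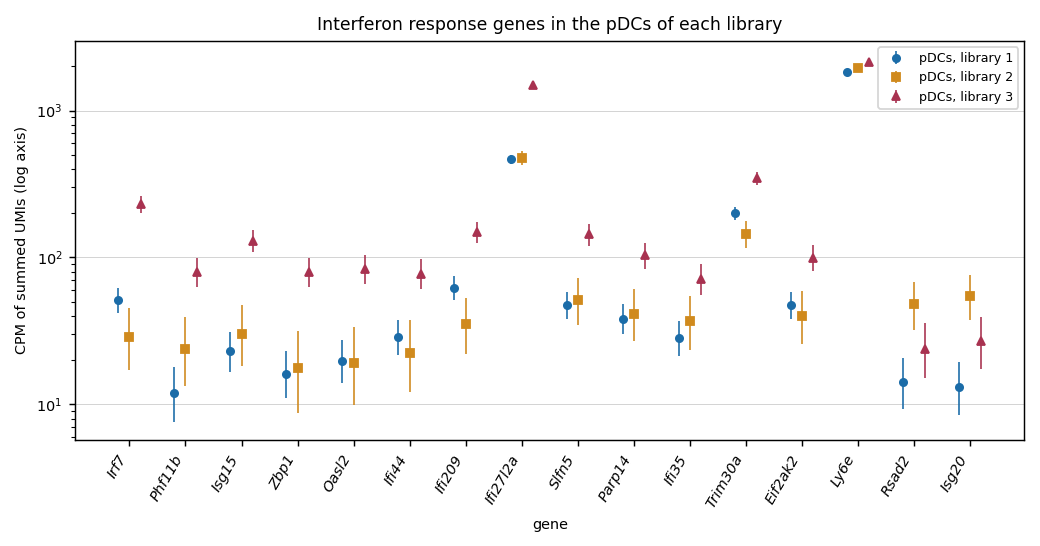
CPM of 16 interferon response genes in all pDCs of each library, on a log axis, with exact 95% Poisson intervals. Library 3 is highest for every gene drawn except Rsad2 and Isg20, which are highest in library 2.

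Library 3 was also highest in non-cycling clean pDCs, which numbered 102, 32 and 61. The medians over the interferon response genes were −0.27, −2.01 and 1.90 there, so libraries 1 and 2 changed places. Library 2 had few UMIs of these genes in this class, such as 8 of Irf7, so its place is uncertain. There 9 of 13 interferon response genes with at least 50 UMIs were at least 2-fold higher in library 3 than in both others, against 45 of 3551 genes, or 1.27%. Irf7 was at 123 (95.3 to 156), 47.3 (20.4 to 93.2) and 394 (331 to 466) CPM and Slfn5, a gene of the interferon-induced Schlafen family, at 119, 35.5 and 269 CPM. Phf11b was at 27.5 (15.4 to 45.4), 11.8 (1.43 to 42.7) and 107 (75.5 to 148) CPM. In cycling clean pDCs Irf7 was at 14.1, 8.74 and 102 CPM, again highest in library 3.

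The promoters of some of these genes hold the letters that interferon-activated factors bind. The motif searched was GAAA, any 2 bases and GAAA again, the core of the interferon-stimulated response element, on both strands of the 250 bases before the gene's start in RefSeq promoters of GRCm38.p6, whereas the counts were made on GRCm39. It was present in at least 1 promoter entry of 3.46% of 27025 genes. Of the 13 genes at least 2-fold higher in library 3, 10 had a promoter entry and 4 of these held it. Over the whole interferon response list 10 of 22 genes with a promoter entry, or 45.5%, held it. The stretches around the motif are shown because they belong to genes of the library 3 difference, 5′ to 3′ on the gene's strand, with the motif in capitals.
Isg15 (chr4:156200855-156200916, minus strand): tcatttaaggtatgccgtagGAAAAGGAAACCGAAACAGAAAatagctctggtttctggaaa
Oas3 (chr5:120777705-120777754, minus strand): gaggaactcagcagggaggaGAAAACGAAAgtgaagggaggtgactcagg
Phf11b (chr14:59341351-59341400, minus strand): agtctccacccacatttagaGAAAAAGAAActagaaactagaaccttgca
Slfn5 (chr11:82951927-82951976, plus strand): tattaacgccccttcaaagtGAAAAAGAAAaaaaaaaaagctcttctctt
Isg15 carries overlapping copies, between 78 and 56 bases before its start, and the others 1 copy each. The match is a description of letters and not of binding.

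Other lists are set here against the 16.6% of all genes tested that differed between libraries. Of 11 MHC class I genes, 1 differed at least 2-fold, and of 20 genes of the secretory pathway and unfolded protein response, 2. Of 15 pDC transcription factor genes 1 differed, and of 28 surface and marker genes 5, a share near that of all genes. Ly6c2, a surface protein of pDCs and monocytes, was at 1309.8, 827 and 2302 CPM in the pDCs and at 1972, 999 and 1369.9 CPM in the others. Klk1 had its highest level in library 3, as given above, in all pDCs and in non-cycling ones. Of 16 cell cycle genes none differed 2-fold over all pDCs. Heat shock genes differed in 4 of 10 cases and immediate-early genes, which respond to handling within minutes, in 5 of 16, both above the share of all genes. Both counts cover few genes and take in all pDCs. For the heat shock gene Hspa1a, 1 pDC gave 52.3% of the library 3 UMIs, and non-cycling clean pDCs held 1, 6 and 3 UMIs. Against the other kept cells none of 12 heat shock genes, 17 immediate-early genes and 11 MHC class I genes was 2-fold higher in all 3 libraries, and 1 heat shock gene was lower. Over all genes tested in that comparison, 7.96% were higher and 2.59% lower.

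The 10 genes with the largest ratios between libraries were Fabp4, Ccl2, Mcpt8, Prss34, Apol11b, Car1, Cxcl9, Ms4a7, Hspa1a and Dcn, and for most of them 1 cell held most of the UMIs. Prss34, a basophil protease, was at 4.18, 6.38 and 422 CPM, and 1 pDC of library 3 gave 99.0% of that library's UMIs. Mcpt8, also of basophils, was at 3.66, 1.60 and 185 CPM, with 98.9% from 1 pDC of library 3. Cxcl9, an interferon-induced chemokine, was at 27.2, 0 and 300.3 CPM, with 88.7% of the library 3 UMIs from 1 pDC. These ratios describe single cells. The clean class did not leave all of them out. Cycling clean pDCs of library 3 held 406 of that library's 409 Prss34 UMIs and all 179 of Mcpt8. In library 1, 1 non-cycling clean pDC held all 1736 Pf4 UMIs of its class. The deepest clean pDC of library 1, also non-cycling, had 81258 UMIs, against a median of 5047.5 in that library's clean pDCs. Cycling clean pDCs of library 3 included cells of 83240 and 44820 UMIs, against a class median of 9802. Those of library 2 included a cell of 56492 UMIs, against a class median of 9276. The comparisons of cycling with non-cycling pDCs include these cells. Such deep cells weigh heavily on the summed CPM, that of Tcf4 and Siglech included, and their part in the differences was not tested. Among genes with at most 20% of the UMIs of their highest library from 1 cell, a rule added after the values were seen, the first were Fcnb, Cebpe, Elane, Mpo and Camp, all of the granulocyte line, followed by Chil3, Usp18, C3, Ltb4r1 and Irf7.

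Granulocyte RNA differed between libraries, in an order that was not the same in all classes of cells. Camp, a granule peptide gene, was at 3969.7, 306 and 573 CPM in all pDCs and at 14453, 5291 and 4682 CPM in the other kept cells. The summed level of 8 neutrophil markers was 40263, 7021 and 13040.4 CPM in all pDCs and 3454, 2436 and 4112 CPM in the clean pDCs, with none of the 8 at 0 in any library. Elane, the neutrophil elastase gene of early granulocytes, was at 339, 59.1 and 185 CPM in the non-cycling clean pDCs. In that class 1 cell gave 88.6% of the Elane UMIs of library 1. In the cycling clean pDCs Elane was at 464, 37.9 and 1021 CPM, higher than in non-cycling ones in libraries 1 and 3 and lower in library 2. Over all pDCs of library 3, 1 cell gave 47.7% of the Elane UMIs. Hbb-bs, the adult beta globin gene, was at 808, 14639.6 and 868 CPM in the pDCs and at 970.2, 30997 and 17671 CPM in the others. A single pDC gave 97.4% of these Hbb-bs UMIs in library 1, 28.2% in library 2 and 17.95% in library 3. The 7 macrophage markers summed to 89.4, 1465 and 1282 CPM in all pDCs and to 27.9, 33.2 and 54.97 CPM in the clean ones. The part of this RNA in the differences between libraries was tested only by leaving those cells out.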

How the data were processed

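Single-cell RNA was captured by the 10x 3′ method from cochleae of 3 groups of pooled mice. The deposited table holds UMI counts of 32285 genes, made by the authors with Cell Ranger 7.1.0 per the file header, on GRCm39 per the submitters' processing notes. The pDCs and gene lists were chosen with earlier results of these data known. From the counts, UMIs were summed over the cells of a class in each library and divided by the class total to give CPM, with a count of 0 set to 3 for ratios. A gene was called higher or lower when the ratio passed 2-fold in all 3 libraries, with at least 20 UMIs in the pDCs, or at least 50 for comparisons between libraries or with cycling. With 1 library per group no test was run. The pDCs held 1913261, 626724 and 968989 UMIs, so intervals cover counting error only and PCR or cell-to-cell spread is not in them. Scrublet, run through scanpy 1.11.5 with 6% doublets assumed, marked doublets, which stayed among the pDCs unless stated. Scripts ran in Python 3.11.15 with numpy 2.4.6, scipy 1.17.1 and pandas 2.3.3, and edgeR 4.0.16 in R 4.3.3 gave an alternative scaling. The calls were tried on simulated Poisson counts with planted changes larger than 2-fold. The simulation had no cell-to-cell spread, so it cannot speak for calls near 2-fold or for genes carried by single cells.

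Named genes were, per list, up to 6 with the highest level or the largest ratio between libraries and those that define the list's role, the 25 genes with the largest ratio to the other kept cells in their lowest library (50 CPM or more required in the pDCs of all 3 libraries), and the 10 with the largest ratio between libraries. The comparison with cycling cells and the class of clean pDCs were added after the data were seen. Alternatives changed the thresholds, the scaling, the minimum count, the fold, the cell classes and the depth per cell.

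Some genes of the lists are not reported here.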

Additional observations from a re-analysis of the deposited data

How the results depend on the processing

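The interferon response genes kept their highest median in library 3 under all alternatives run. A Siglech minimum of 5 gave pDC shares of 1.16% in library 1, 0.573% in library 2 and 0.832% in library 3. Intervals were not computed at this minimum, so whether that of library 1 still lay above the others was not tested. For the counts against the other kept cells, of which 776 were higher and 253 lower, TMM scaling gave 395 lower and the mean of single-cell CPM 526 lower. Thinning each cell to 1000 UMIs gave 463 higher and 54 lower genes, 292 that differed between libraries (1256 without it), and interferon medians of −0.24 in library 1 and −1.17 in library 2. No minimum count gave 2484 higher and 552 lower, and a 4-fold rule 285 higher, 31 lower and 226 between libraries. A minimum of 20 UMIs between libraries gave 2369. Without the cells with C1q, S100 or a doublet call, the share in library 1 was 1.21% and the interferon medians −0.48 in library 1 and −1.16 in library 2. Without the C1q cells alone these medians were −0.38 and −1.05, in non-cycling clean pDCs −0.27, −2.01 and 1.90 in libraries 1, 2 and 3, and without the 10% of pDCs with most UMIs −0.49, −1.12 and 1.74. A cycling limit of 0.5% gave 42.1% cycling cells in library 1, and one of 0.2% gave 219 genes lower in cycling cells (143 at 0.3%). The median of free RNA genes turned to 0.47 in library 3 without the C1q, S100 and doublet cells, and to −0.15 in library 1 and 0.67 in library 3 in non-cycling pDCs, where the cytokine median turned to 0.54 in library 1 and −0.28 in library 3. The settings that leave out cells by C1q, S100, doublet call, cycling or UMI total, and the cycling limits, were chosen after seeing the data. The causes were not tested. The limit of 2 UMIs of S100a8 and S100a9 left 0, 2 and 0 pDCs and gave no value. No paired analysis was possible because each group had 1 library. Genes under 20 UMIs in the pDCs, Tlr9, Rag1, Batf3 and Tlr3 among them, were not called higher or lower at this depth.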
